A study of Mus musculus with 27 samples.

Results

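The UDP-glucuronosyltransferases of the Ugt2 and Ugt3 groups were followed in maternal mouse liver. The group was chosen by gene name and comprised 9 genes, Ugt2a3, Ugt2b1, Ugt2b5, Ugt2b34, Ugt2b35, Ugt2b36, Ugt2b38, Ugt3a1 and Ugt3a2, of 21823 genes in the table. All 9 passed the filter on low values and were among the 12952 genes tested. Livers of wild-type female C57BL/6 mice (C57BL/6N in the study's methods), adult and virgin at the start of the experiment, were sampled in the non-pregnant state (NP) and at 8 and 16 days post-coitum (dpc8 and dpc16). Each lobule was cut by laser into zone 1 around the portal vein, zone 2 between the veins and zone 3 around the central vein, and RNA-seq was run on 3 libraries for each of the 9 stage and zone groups, 27 in all. No group received an agent or carried an engineered allele. The study's methods and legends speak of independent experiments and different mice, but the labels tie no library to an animal, so the p-values measure the spread between these libraries.

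UDP-glucuronosyltransferases sit in the endoplasmic reticulum of hepatocytes and attach a sugar to lipid-soluble compounds, which makes them water soluble and ready for export into bile or blood. Ugt2 enzymes take glucuronic acid from UDP-glucuronate and act on steroids, bile acids and drugs, whereas the Ugt3 enzymes use other UDP-sugars, such as UDP-N-acetylglucosamine for Ugt3a1. Steroid hormones rise as pregnancy advances, and glucuronidation in the maternal liver is one of the routes by which they are cleared.

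In the mm10 build, 7 members lie together on chromosome 5 from 86889767 to 87424203, a stretch of 534.4 kb in the order Ugt2b34, Ugt2b1, Ugt2b35, Ugt2b36, Ugt2b5, Ugt2a3 and Ugt2b38. The stretch holds 8 protein-coding genes, of which the other one, Ugt2b37, was not a member. All but Ugt2b35 are on the minus strand. Ugt3a1 (chromosome 15, 9276888 to 9315032) and Ugt3a2 (9335550 to 9370955) are both on the plus strand, 20517 bases apart. The members resemble each other closely, which bears on how far single genes could be measured. Across their coding sequences Ugt2b5 and Ugt2b38 were 97.0% identical, Ugt3a1 and Ugt3a2 93.3%, and Ugt2b35 and Ugt2b36 88.5%. The reads were 86 bases long, and the authors kept those that mapped to 1 place. Of all windows of 86 bases in a transcript, 26.9% of those of Ugt2b5 and 25.6% of those of Ugt2b38 were also found in a transcript of another gene (Ugt2b37, or each other), whereas Ugt2b1, Ugt2b35 and Ugt2b36 shared none, and the other 4 members between 0.446% and 1.28%. A read that fell exactly on the first 86 coding bases of Ugt2b5 could not be told from one of Ugt2b38. These bases, 1 read length, are shown with those of other members of the cluster from the GENCODE vM21 transcripts. Capitals mark bases that differ from Ugt2b5.
Ugt2b5: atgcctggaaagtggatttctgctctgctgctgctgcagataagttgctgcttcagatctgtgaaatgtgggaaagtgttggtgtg
Ugt2b38: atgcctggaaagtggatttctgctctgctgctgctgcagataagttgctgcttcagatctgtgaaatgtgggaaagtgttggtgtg
Ugt2b36: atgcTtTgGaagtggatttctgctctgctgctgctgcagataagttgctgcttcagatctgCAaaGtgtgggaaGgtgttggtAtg
Ugt2b35: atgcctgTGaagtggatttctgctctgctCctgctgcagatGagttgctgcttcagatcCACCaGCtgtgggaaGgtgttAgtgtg
Ugt2b1: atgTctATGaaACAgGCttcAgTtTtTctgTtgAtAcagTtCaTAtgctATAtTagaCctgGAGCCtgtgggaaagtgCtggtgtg
Ugt2b34: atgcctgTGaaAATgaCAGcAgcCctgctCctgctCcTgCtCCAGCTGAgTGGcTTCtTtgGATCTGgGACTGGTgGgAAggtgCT
Ugt2b38 had 0 differences from Ugt2b5 in this stretch, Ugt2b36 had 8, Ugt2b35 had 12, Ugt2b1 had 31 and Ugt2b34 had 47. The same stretch of the Ugt3 pair is shown with capitals for bases of Ugt3a2 that differ from Ugt3a1, of which there were 7.
Ugt3a1: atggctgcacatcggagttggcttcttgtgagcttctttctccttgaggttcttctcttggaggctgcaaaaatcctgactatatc
Ugt3a2: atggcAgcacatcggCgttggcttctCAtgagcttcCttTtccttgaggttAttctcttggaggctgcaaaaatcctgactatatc

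Before the results, 6 of the 27 libraries stood apart. Their summed FPKM of the Y-linked genes Ddx3y, Eif2s3y, Kdm5d and Uty was above 5 (7.92 to 23.2) although the mice were female, against at most 2.97 in the others, and they held more smooth muscle and connective tissue marker RNA (summed FPKM 723 to 4088) than the other 21 libraries (17.8 to 494). Among NP libraries these were replicate 1 of zone 1 and replicate 2 of zone 3, at dpc8 replicate 1 of zone 1 and replicate 2 of zone 2, and at dpc16 the replicates numbered 3 of zones 2 and 3. In these libraries 9, 4, 9, 8, 9 and 8 of the 9 members, in that order, had the lowest value of their group. Some results are given with and without them. Among those given with all libraries alone are the counts of ranges that do not overlap, the shares other than that of Ugt2b36, and the other glucuronidation genes. The zone labels held: in each stage all 7 periportal markers were higher and all 7 pericentral markers lower in zone 1 than in zone 3. Low FPKM values of genes with 1 transcript moved in steps of whole reads (93.8% to 98.8% of them within 0.15 of a whole read), which put the depth at about 7500000 to 33400000 reads per library, with a median of 16500000. FPKM is a relative measure, and fewer hepatocytes in a cut area or less RNA per hepatocyte cannot be told apart.

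**Figure D1:**
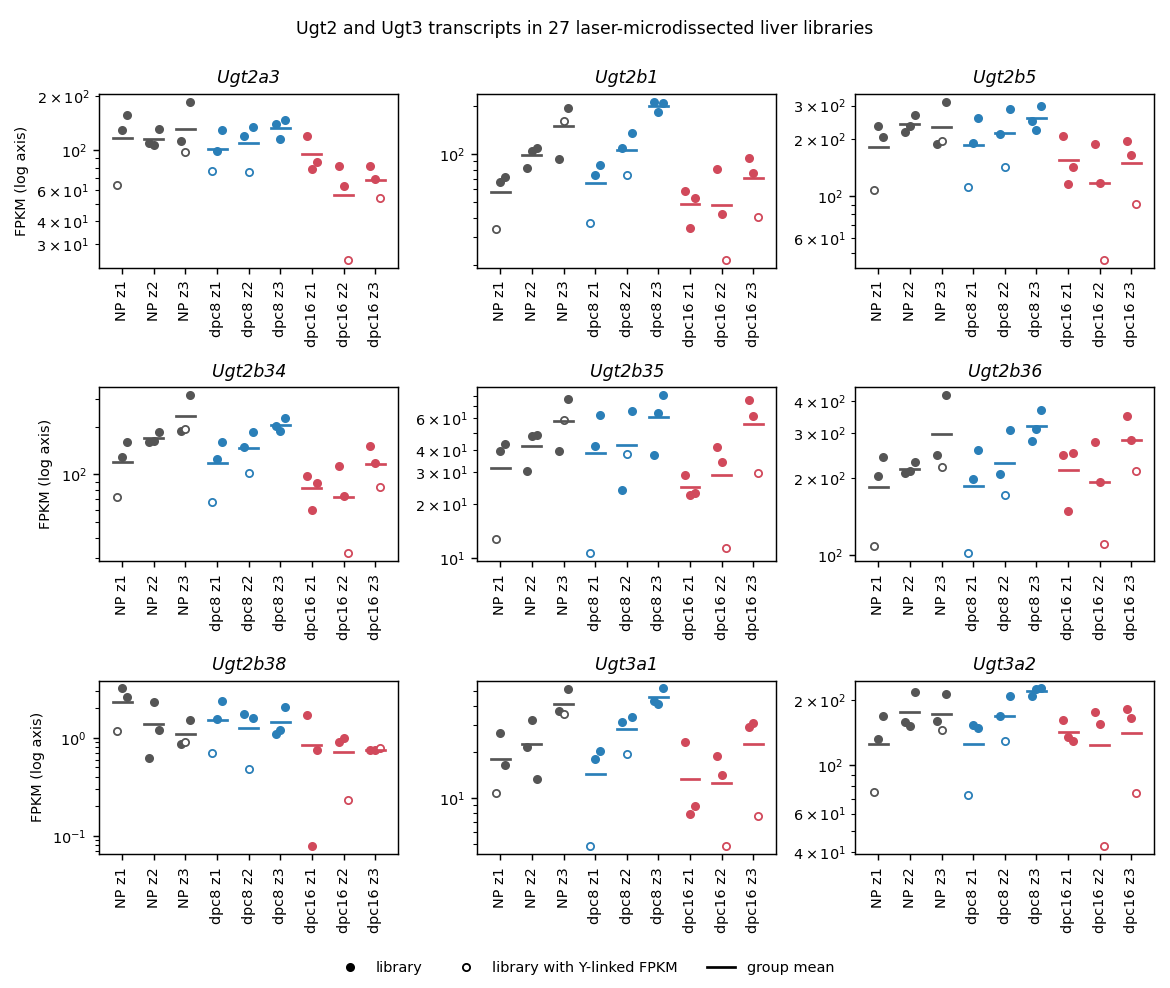
FPKM (log axis) of each of the 9 members in each of the 27 libraries, grouped by stage and zone (z1 to z3). Points are libraries, bars the mean of 3, and open points the 6 libraries with Y-linked transcripts, which are low in most panels.

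Ugt2b36 and Ugt2b5 were the most abundant members, with mean levels over the 27 libraries of 236 and 193 FPKM. Ugt2b36 was the highest of the 9 in 20 libraries and Ugt2b5 in the other 7. Ugt3a2 (155 FPKM), Ugt2b34 (140), Ugt2a3 (103) and Ugt2b1 (93.9) followed, then Ugt2b35 (42.6) and Ugt3a1 (24.1). Ugt2b38 was at the low end with 1.27 FPKM and reached 1 FPKM in 15 of 27 libraries. By the depth inferred above, with an assumed fragment length of 200 bases, it held about 1.0 to 96.0 reads per library. Its differences thus rest on few reads. The plot of FPKM by library shows that neighbours in this order, such as Ugt2b34 and Ugt3a2, overlapped in their spread. The 9 members together summed to 293 FPKM in dpc16 zone 2 replicate 3 and 1771 in NP zone 3 replicate 3.

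Ugt2b1 was lower in zone 1 than in zone 3. In NP zone 1 it stood at 34.1, 66.6 and 71.7 FPKM and in NP zone 3 at 92.9, 161 and 195 FPKM, with no overlap. At dpc8 the zone 1 libraries stood at 37.0, 73.4 and 85.8 FPKM and the zone 3 libraries at 212, 183 and 208 FPKM, again apart. At dpc16 the values were 58.7, 34.2 and 52.7 FPKM in zone 1 and 94.8, 76.4 and 40.3 FPKM in zone 3, and they overlapped through the lowest of these, the Y-linked replicate 3, without which the zones were apart. The intermediate zone 2 held 81.7, 105 and 109 FPKM in NP, 109, 73.7 and 135 at dpc8, and 80.4, 41.95 and 21.7 at dpc16. With limma, averaged over the 3 stages, Ugt2b1 differed between zone 1 and zone 3 by -1.18 (log2(FPKM + 1) scale, SE 0.25, 95% interval -1.69 to -0.67, adjusted p 0.00348), and this call held without each of the 18 zone 1 and zone 3 libraries in turn (adjusted p 0.00146 to 0.0109). At dpc8 alone the difference was -1.69 (SE 0.43, adjusted p 0.0445), and at NP and dpc16 it was -1.37 and -0.48 and did not pass (adjusted p 0.178 and 0.943). The NP difference passed in 3 of 9 other fits, with a lowest adjusted p of 0.00516. These were scaling to a sum of 1000000, the replicate number as a block and a connective tissue covariate. They called 210, 282 and 301 of all genes in that comparison. Without the Y-linked libraries the dpc16 difference was -0.83 (adjusted p 0.242). The dpc8 call was lost without dpc8 zone 1 replicate 1 or 2 or any of the 3 dpc8 zone 3 libraries (adjusted p 0.0778 to 0.275). It held without all 6 Y-linked libraries (-1.33, adjusted p 0.0255), where 2.76% of all genes were called. It was lost with no filter, with quantile normalization or with only the groups compared (limma adjusted p at most 0.0695).

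Ugt2b34 and Ugt3a1 shared this direction. Ugt3a1 was at 10.8, 26.6 and 16.3 FPKM in NP zone 1 and 36.7, 35.1 and 51.3 in NP zone 3, and at 4.89, 18.04 and 20.3 against 42.8, 41.3 and 51.8 at dpc8, in each case without overlap. At dpc16 the zone 1 values of 23.2, 7.85 and 8.86 FPKM overlapped those of zone 3, 29.0, 30.6 and 7.67, the last from the Y-linked replicate 3, without which they were apart. Averaged over stages Ugt3a1 differed by -1.22 (SE 0.32, 95% interval -1.88 to -0.56, limma adjusted p 0.0223). Leaving out any of 6 libraries (in zone 1 replicate 1 of NP, replicate 1 of dpc8 or replicate 2 of dpc16, in zone 3 replicate 3 of NP or replicates 1 and 2 of dpc16) lifted its adjusted p to between 0.0501 and 0.0582. Ugt2b34 was at 72.1, 129 and 160 FPKM in NP zone 1 and 187, 193 and 315 in NP zone 3, and at 67.5, 125 and 161 against 202, 188 and 228 at dpc8. Both sets were apart. At dpc16 its zone 1 values of 97.9, 59.9 and 88.9 FPKM overlapped with the 150, 117 and 83.2 FPKM of zone 3, again through replicate 3 alone. Averaged over stages Ugt2b34 differed by -0.78 (SE 0.23, limma adjusted p 0.0456), a call that held in 3 of 18 analyses with 1 library left out, and was otherwise lost with an adjusted p of 0.0503 to 0.109. It held when the library left out was replicate 3 of zone 1 in NP or at dpc8, or replicate 3 of zone 3 at dpc16.

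In total 3 of 9 members were lower in zone 1 than in zone 3 over the 3 stages, where 2.89% of all genes tested were lower and called and 5.59% were called in either direction. The median of the members was -0.65 and that of all tested genes 0.04. Within dpc8 1 of 9 was called lower, against 0.926% of all genes. Within NP and within dpc16 no member was called, whereas 0.811% and 0.772% of all genes were called lower. The ranges of zones 1 and 3 did not overlap, with zone 1 lower, for 3 members in NP, 5 at dpc8 and 1 (Ugt2b35) at dpc16, against 6.05%, 10.5% and 6.39% of all genes. Without the 6 libraries with Y-linked transcripts 4 members were called over the stages (Ugt2b1, Ugt2b34, Ugt3a1 and Ugt3a2), where 8.18% of all genes were called. Ugt2b36 (-0.65, adjusted p 0.0960) and Ugt2b35 (-0.97, adjusted p 0.102) had the same sign but did not pass. With the replicate number as a block both passed (adjusted p 0.0270 and 0.00174), where 8.10% of all genes were called. Ugt2a3 (-0.06), Ugt2b5 (-0.28) and Ugt3a2 (-0.43) had intervals that included 0, and Ugt2b38 alone had a positive value (0.20). Neighbouring zones gave no member call with limma. Within stages 2 of 54 tests had an unadjusted p under 0.05, against 4.89% of the tests of all genes, and of all genes 0.154%, 0.124% and 0.139% were called between zones 1 and 2 in NP, dpc8 and dpc16 and 0.401%, 0.347% and 0.517% between zones 2 and 3. Averaged over stages 0.919% and 1.88% of all genes were called for these pairs, and the member nearest to the threshold was Ugt2b1 between zones 2 and 3 (-0.72, adjusted p 0.211).

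**Figure D2:**
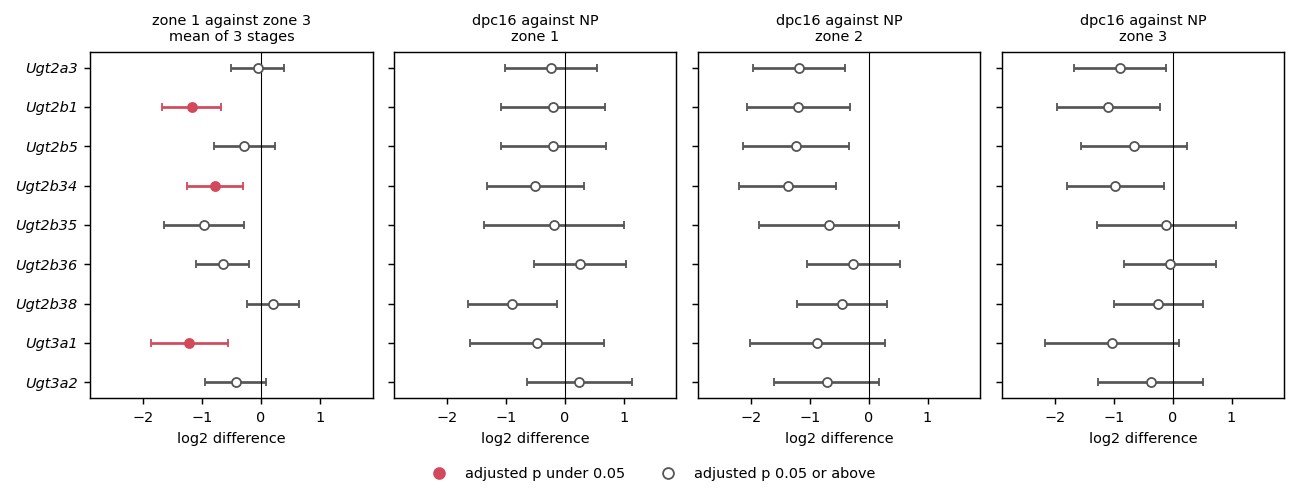
Difference on the log2(FPKM + 1) scale with its 95% interval for each member, for zone 1 against zone 3 averaged over 3 stages and for dpc16 against NP in each zone. Filled points passed an adjusted p of 0.05, which was the case for Ugt2b1, Ugt2b34 and Ugt3a1 in the zone panel and for none in the stage panels.

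Between NP and dpc8 no member was called in any zone (limma, lowest adjusted p 0.978, none of 27 tests at an unadjusted p under 0.05, and 0.0309%, 0.00772% and 0.0154% of all genes called in zones 1, 2 and 3). The medians over the 9 members were -0.01, -0.07 and 0.16 in zones 1 to 3. The intervals were wide. For Ugt2b36 in zone 3 the difference was 0.16 with a 95% interval of -0.63 to 0.95, which covers both lower and higher levels at n = 3.

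At dpc16 no member passed the threshold against NP. All 9 members had a negative difference in zone 2, with a median of -0.87 against 0.04 for all genes, and in zone 3, with a median of -0.66 against 0.01. Without the Y-linked libraries 8 of 9 were negative in each of these zones, the exceptions being Ugt2b36 in zone 2 (0.09) and Ugt2b35 in zone 3 (0.31). In zone 1, 7 of 9 were negative and the median was -0.20, which became 9 of 9 and -0.61 without NP zone 1 replicate 1, a library with Y-linked transcripts. Across the 3 zones, 8 of 27 tests had an unadjusted p under 0.05 (13% of the tests of all genes did), with 0 called by limma and a lowest adjusted p of 0.0640, whereas 1.37%, 2.66% and 1.32% of all genes were called in zones 1, 2 and 3. In zone 2 the ranges of dpc16 and NP did not overlap for 4 members, all lower at dpc16, where 9.59% of all genes were lower in that way. In zone 3 this held for 4 members, against 8.87% of all genes. The comparisons of dpc8 and dpc16 with NP use the same NP libraries, and those of dpc16 with NP and with dpc8 the same dpc16 libraries.

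Ugt2b34 was the member nearest to the threshold. In zone 2 it stood at 161, 161 and 185 FPKM in NP and at 113, 72.9 and 32.0 FPKM at dpc16 (difference -1.38, SE 0.40, adjusted p 0.0640), and it reached 0.0205 without dpc16 zone 2 replicate 1 and 0.282 at the most. In the same zone Ugt2b5 stood at 217, 233 and 269 FPKM in NP and at 189, 116 and 45.9 at dpc16 (-1.24, SE 0.43, adjusted p 0.136). Ugt2b1 (-1.20, adjusted p 0.142) and Ugt2a3 (-1.18, adjusted p 0.101) were close to it. The lowest dpc16 library in zone 2 for each of these 4 was replicate 3, which carried Y-linked transcripts and had a summed FPKM of smooth muscle and connective tissue markers of 4088, against 21.4 and 21.6 in the other 2. Without it the differences were -0.89 for Ugt2b34, -0.68 for Ugt2b5, -0.74 for Ugt2b1 and -0.67 for Ugt2a3, and none passed. With the connective tissue markers as a covariate these 4 passed in zone 2 (-1.22, -1.05, -1.03 and -1.02, adjusted p 0.00244, 0.00618, 0.0280 and 0.00403) and in zone 3, where 5.50% and 4.11% of all genes were called. Without the 6 Y-linked libraries the medians of the 9 members were -0.61, -0.35 and -0.44 in zones 1, 2 and 3, so that the order of the zones was not kept. In zone 3 Ugt2b1 differed by -1.10 and Ugt2b34 by -0.98 (adjusted p 0.271 and 0.3001).

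Between dpc16 and dpc8, none of 27 tests was called by limma, 9 were under an unadjusted p of 0.05 (12.7% of the tests of all genes were), and 2.01%, 1.51% and 1.37% of all genes were called in zones 1 to 3. With each library scaled to a sum of 1000000, 4, 6 and 5 members were called, beside 1519, 911 and 753 of all genes. With the connective tissue covariate 1, 6 and 2 members were called, beside 328, 632 and 439 of all genes. Ugt2b1 in zone 3 came nearest. Its 3 libraries stood at 212, 183 and 208 FPKM at dpc8 and at 94.8, 76.4 and 40.3 at dpc16 without overlap (-1.58, SE 0.43, adjusted p 0.0662). Without the Y-linked libraries it was called (-1.23, adjusted p 0.0334), where 3.87% of all genes were called. The ranges did not overlap, with dpc16 lower, for 0 members in zone 1, 1 in zone 2 (Ugt3a1) and 7 in zone 3, where 10.1%, 6.96% and 12.2% of all genes were lower in that way. The difference in the change between zones passed for no member (54 tests, limma, lowest adjusted p 0.782, none at an unadjusted p under 0.05), where 0.0540% and 0.0154% of all genes were called for the dpc16 change in zone 1 against zone 3 and zone 2 against zone 3 and 0% for each other pair. A larger difference in zones 2 and 3 than in zone 1 was thus not shown.

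The authors' FPKM are not scaled to a common sum, and the sum over all genes ran from 499866 to 988500 per library. Alb, the gene of serum albumin, took 7.98% to 21.0% of that sum at dpc16 and 3.71% to 11.98% in NP. The lowest dpc16 values, 7.98% and 9.59%, were those of the Y-linked libraries, and the other dpc16 libraries ran from 15.2% to 21.0%. The sum over all genes was 834568 to 988500 in these others and at most 704327 in NP, so that scaling differed with stage. When each library was scaled to a sum of 1000000, the median difference of all genes between dpc16 and NP was -0.57, -0.20 and -0.21 in zones 1, 2 and 3, a shift of -0.52, -0.23 and -0.23 from the deposited scale. On that scale 3, 5 and 3 members were called, all lower, in zones 1, 2 and 3, where 5.67%, 8.77% and 4.81% of all genes were called, and Ugt2b36 and Ugt3a2, positive in zone 1 as deposited (0.26 and 0.25), were negative (-0.35 and -0.36), though above the median of all genes by 0.22 and 0.21. On the deposited scale both were also negative without NP zone 1 replicate 1, the Y-linked library of that comparison (-0.08 each).

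**Figure D3:**
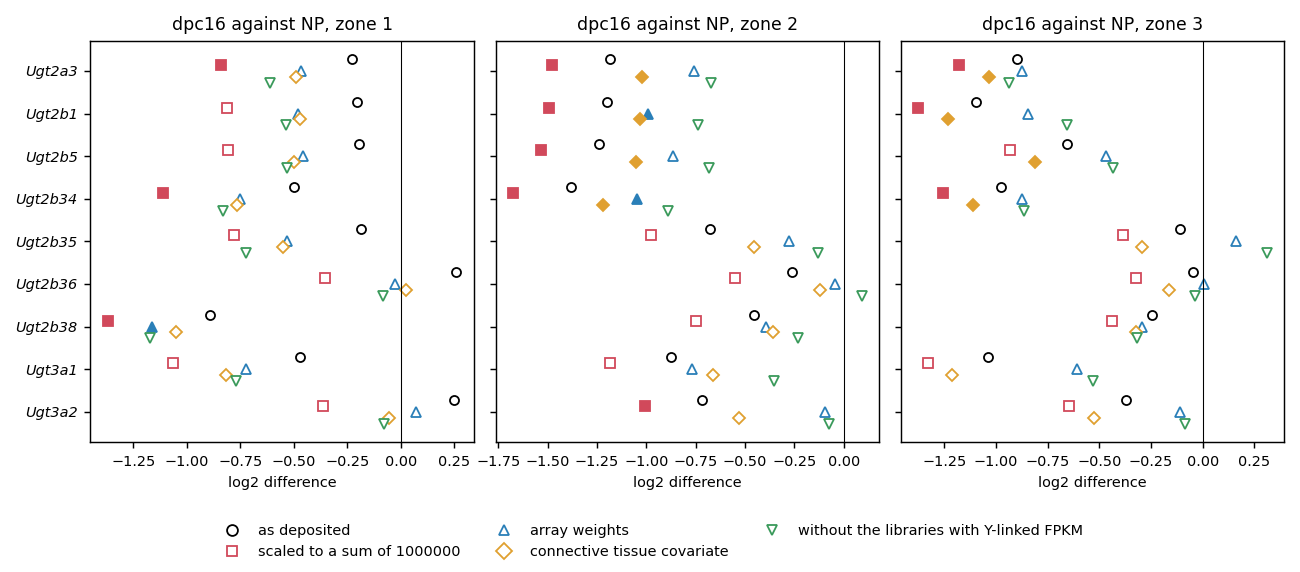
Difference between dpc16 and NP for each member and zone under 5 ways of fitting. Filled symbols passed an adjusted p of 0.05, and the scaled values (squares) lie to the left of the deposited ones (circles) in each panel.

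Ratios between members do not depend on the scaling of a library, and here Ugt2b36 stood apart at dpc16. Its share of the summed FPKM of the 9 members was 19.1% to 23.8% in NP (median 21.2%, n = 9), 20.2% to 23.0% at dpc8 (median 22.6%, n = 9) and 24.7% to 37.6% at dpc16 (median 29.1%, n = 9). All 9 dpc16 libraries were above all 18 others. Without the Y-linked libraries the dpc16 share ran from 24.7% to 32.1% in 7 libraries. Ugt2b34 showed the opposite, with 13.4% to 17.8% in NP, 13.6% to 14.8% at dpc8 and 9.94% to 14.01% at dpc16, where 8 of 9 libraries were below all others. The share of Ugt2b1 was 6.73% to 14.6%, 7.64% to 15.4% and 5.68% to 8.22% in the 3 stages, and that of Ugt2b5 17.6% to 24.2%, 16.5% to 23.1% and 15.3% to 22.0%. Put as a ratio, Ugt2b36 to Ugt2b5 had a median of 1.01 in NP (0.857 to 1.35), 1.06 at dpc8 (0.912 to 1.39) and 1.71 at dpc16 (1.18 to 2.4). The level of this ratio and of the shares may depend on the reads of Ugt2b5 that had no single place, which was not tested. These shares were chosen after their values were seen and carry no test. Ugt2b36 itself differed from NP at dpc16 by 0.26, -0.26 and -0.05 in zones 1 to 3, with 95% intervals from -0.53 to 1.05, -1.05 to 0.52 and -0.83 to 0.74.

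**Figure D4:**
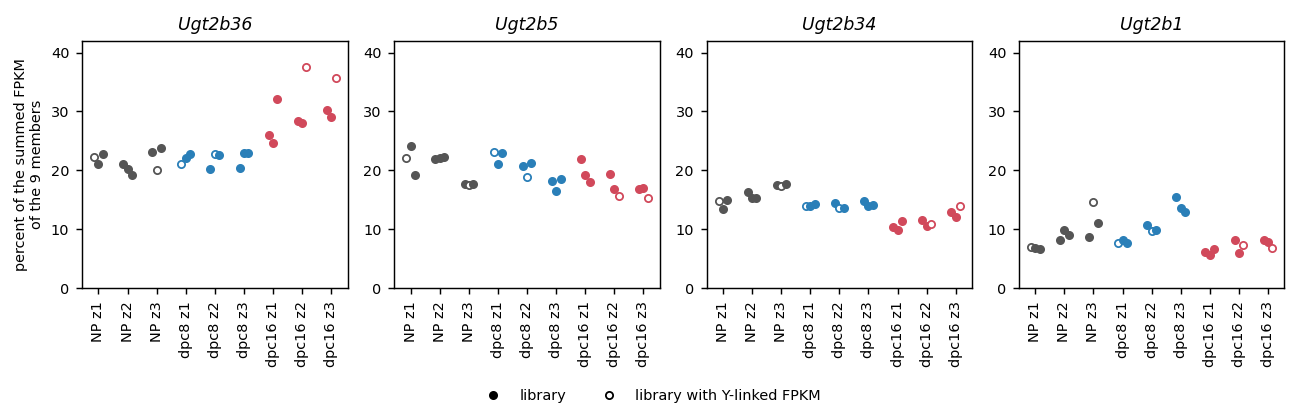
Share of 4 members in the summed FPKM of the 9, in percent, for each library by stage and zone. Points are libraries, with open points for those with Y-linked transcripts. All 9 dpc16 points of Ugt2b36 lie above its NP and dpc8 points.

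For Ugt2b36 the values by library were 108, 203 and 243 FPKM in NP zone 1, 209, 213 and 231 in zone 2 and 247, 221 and 421 in zone 3. At dpc8 they were 102, 199 and 257, then 207, 171 and 307, then 279, 311 and 368. At dpc16 they were 247, 149 and 251, then 277, 194 and 110, then 349, 282 and 212. The 3 stages overlapped in every zone. Ugt2b5 in zones 1 and 3 stood at 107, 233 and 205 and at 189, 195 and 313 FPKM in NP, at 112, 191 and 258 and at 249, 223 and 298 at dpc8, and at 209, 116 and 142 and at 195, 165 and 90.7 at dpc16, with overlap between dpc16 and NP in both. Across the 27 libraries the genes whose log2 values followed Ugt2b36 most closely were 4931406C07Rik (Pearson r 0.93), Itm2b (0.92) and Tmem205 (0.90), and among those nearest to Ugt2b5 were Gjb1 (0.95), the gap junction protein of hepatocytes, and Lcp1 (0.94). These correlations are over libraries that share stage, zone and the Y-linked set, and are given as a description.

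The other genes of glucuronidation were counted by whole lists. Of 13 other Ugt genes, 10 were tested. Averaged over stages, 2 were higher and 3 lower in zone 1 than in zone 3, where 2.70% and 2.89% of all genes were called higher and lower. Ugt1a9 was higher in zone 1 in NP, dpc8 and dpc16 by 2.17, 2.01 and 2.03 (adjusted p 0.00430, 0.00880 and 0.00656), the reverse of the direction of Ugt2b1. The Ugt1a genes share their last exons, so their FPKM are uncertain. At dpc16 Ugt1a6b was lower than in NP in zones 1 to 3, with differences of -1.53, -1.97 and -1.77 (limma adjusted p 0.0327, 0.00332 and 0.0116), and Ugt2b37, which shares sequence with Ugt2b5 and Ugt2b38, was lower in zone 3 (-2.04, adjusted p 0.0144).

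Among 8 genes that supply UDP-glucuronate, 7 were tested. At dpc16 in zone 1 relative to NP, Ugdh, the enzyme that makes UDP-glucuronate, was lower (-1.43, adjusted p 0.0294) and Slc35b1, a nucleotide transporter of the endoplasmic reticulum, was higher (1.55, adjusted p 0.0106). Relative to NP no gene of this list was called in zones 2 and 3. Relative to dpc8 Ugdh was lower at dpc16 in zones 1 to 3 (-1.78, -1.51 and -1.37, adjusted p 0.00609, 0.0222 and 0.0413) and Slc35b1 higher in zones 1 and 2 (1.46 and 1.24, adjusted p 0.0156 and 0.0464). Of the 8 genes of glucuronide hydrolysis and glucuronate use, all tested, Gusb, the lysosomal β-glucuronidase, rose by 1.35, 0.96 and 1.02 in zones 1 to 3 at dpc16 and was the only one of the list called (limma adjusted p 6.69e-05, 0.00310 and 0.00186). In this list 2 genes were higher and 3 lower in zone 1 than in zone 3 over the stages, beside the same 2.70% and 2.89% of all genes. Gulo, the last enzyme of vitamin C synthesis, differed by -4.73 and Rgn, which acts just before it, by -2.54, whereas Cryl1, which handles L-gulonate, differed by 4.13. Of the 4 efflux transporters, Abcc3, which carries glucuronides out of hepatocytes into blood, was lower at dpc16 than in NP, with differences of -2.88, -4.16 and -3.35 in zones 1 to 3 (adjusted p 0.00348, 5.37e-05 and 0.000707). Of 15 regulators none was called between dpc16 and NP, and 1, Foxa3, a forkhead factor of hepatocytes, was higher at dpc16 than at dpc8 in zone 1 (2.61, adjusted p 0.0137). Beside the counts of these lists, 1.37%, 2.66% and 1.32% of all genes were called between dpc16 and NP in zones 1 to 3. Between dpc16 and dpc8 the shares were 2.01%, 1.51% and 1.37%. Over the stages Ahr, the aryl hydrocarbon receptor, and Nr1i3, the constitutive androstane receptor, were lower in zone 1 than in zone 3 (-2.49 and -0.97). The median difference of the regulators between dpc16 and NP was -0.05, -0.54 and -0.49 in zones 1, 2 and 3, against -0.05, 0.04 and 0.01 for all genes. These medians include the Y-linked libraries and are not given without them.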

How the data were processed

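RNA was taken from laser-cut zones of frozen liver sections, and libraries were made after ribosomal RNA depletion and sequenced single-end. Per the labels and the study's methods, cutadapt removed adapters, HISAT2 2.1.0 placed the reads on mm10, and from reads with a single place Cuffdiff (Cufflinks 2.2.1, GENCODE genes) gave the FPKM the authors deposited. FPKM are scaled to transcript length and to 1000000 reads and are not counts, so no count test was run. The members and gene lists were chosen with earlier results of these data known.

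From the deposited FPKM, genes with at least 1 FPKM in at least 3 libraries were kept and log2(FPKM + 1) was tested with limma 3.58.1 (R 4.3.3; 9 group means, trend and robust variances), with Benjamini-Hochberg adjustment over the 12952 genes within each comparison and a threshold of 0.05. The fold understates changes of low genes. All members are named, with values per library for the members called and the 2 with the highest mean FPKM. The test was run on simulated data with independent noise and no outlying libraries. That check cannot show how far the calls here depend on single libraries. The alternatives tried are a pseudocount of 0.1, no filter, quantile normalization, scaling to a sum of 1000000, only the groups compared, array weights, a block for the replicate number, a connective tissue covariate, and leaving out libraries. Of 9 correlations between libraries with the same number, 9 were above 0.1 at dpc16 (median 0.36), 5 at dpc8 (median 0.29) and 4 at NP (median 0.01). These are not correlations of the levels themselves, which were 0.789 to 0.976 within a group. The highest at dpc16, 0.863, joined replicate 3 of zones 2 and 3, which are both Y-linked libraries. Positions and transcripts came from GENCODE vM21 (mm10) and windows, identities and shares from Python 3.11.15 and Biopython 1.88.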

Additional observations from a re-analysis of the deposited data

How the results depend on the processing

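Between neighbouring zones within stages, between dpc8 and NP, and for differences in the change between zones, the count of members called stayed at 0 in each alternative, leaving out single libraries included. Of the calls of zone 1 against zone 3 within stages (1 as reported), 0 remained with no filter, with quantile normalization or with only the groups compared, 2 with scaling to a sum of 1000000 or array weights, and 3 with the replicate block or the connective tissue covariate. Leaving out 1 library gave 0 to 1. Of all genes, 173, 208 and 201 were called between these zones as reported in NP, dpc8 and dpc16. Scaling gave 210, 263 and 238 of all genes, and array weights 271, 855 and 496. The replicate block gave 282, 459 and 343, and the covariate 301, 233 and 333. Over the 3 zone comparisons averaged over stages, 3 calls became 7 with scaling to a sum of 1000000 or the covariate, and 6 with array weights or the replicate block, and 1 to 4 with 1 library left out. For zones 1 and 3, 835, 1042, 1450 and 1049 of all genes were called in these 4 fits, in that order, against 724 as reported. For zones 2 and 3 these were 311, 413, 623 and 414, against 244. Without a filter the averaged call of Ugt2b34 was lost. The block, on stage and replicate number, added Ugt2b1 in NP and Ugt3a1 at dpc8 for zone 1 against zone 3, and over the stages Ugt2b35 and Ugt2b36 for these zones and Ugt2b1 for zone 2 against zone 3. All correlations of same-numbered libraries were above 0.1 at dpc16 alone, where the block changed no call between zones. For dpc16 against NP, 0 member calls became 1 with quantile normalization, 11 with scaling, 3 with array weights and 8 with the covariate, and 0 to 4 with 1 library left out (4 without dpc16 zone 2 replicate 1). In zones 1, 2 and 3, 177, 345 and 171 of all genes were called as reported. Quantile normalization gave 171, 333 and 154 of all genes, and scaling 735, 1136 and 623. Array weights gave 667, 1101 and 776, and the covariate 338, 712 and 532. For dpc16 against dpc8, 0 became 15 with scaling, 4 with array weights, 9 with the covariate and 1 without the Y-linked libraries, and 0 to 1 with 1 library left out. Here 260, 195 and 178 of all genes were called as reported in zones 1, 2 and 3. Scaling gave 1519, 911 and 753 of all genes, and array weights 1007, 993 and 1567. The covariate gave 328, 632 and 439, and leaving out the Y-linked libraries 567, 506 and 501. The cause of these shifts was not tested. Between dpc16 and NP, Ugt2b36 changed sign in zone 1 (0.26 as reported) with scaling (-0.35), array weights (-0.027) or without the Y-linked libraries (-0.082), in zone 2 (-0.26) without the Y-linked libraries (0.091) and in zone 3 (-0.05) with array weights (0.0060), and over the libraries left out it ran from -0.08 to 0.51, from -0.57 to 0.09 and from -0.23 to 0.24. Ugt3a2 in zone 1 (0.25) changed sign with scaling (-0.36), the covariate (-0.056) or without the Y-linked libraries (-0.077), and ran from -0.08 to 0.50. Near 0, Ugt2a3 in zone 1 changed sign, from -0.61 to 0.030 against NP and from -0.27 to 0.10 against dpc8, and Ugt2b5 from -0.55 to 0.045 against dpc8, over the libraries left out. With 3 libraries per group, intervals on the log2 scale were wide.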
